A study of Sus scrofa domesticus with 16 samples.

Results

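Pig chromosome 3 carried 209 of the 2349 differentially methylated sites (DMSs) in the authors' deposited table of lung DNA. All rows of that table whose chromosome was given as 3 were taken, with no selection on gene, size or direction. The lungs of 16 pigs had been analysed by reduced representation bisulfite sequencing (RRBS), which reads cytosine methylation close to the cut sites of the enzyme MspI. Standard cholecalciferol (vitamin D3) was fed to 8 animals, 2000 IU/kg in grower feed and 1500 IU/kg in finisher feed. Increased cholecalciferol was fed to the other 8, 3000 IU/kg in grower feed and 2500 IU/kg in finisher feed. Each group had 4 males and 4 females, and both groups received the vitamin, so no animal was without it. Each site has 1 difference in methylation level, in percentage points, and a q-value, both computed by the authors. The table does not state the order of subtraction. It was read as increased minus standard dose because the study counts 1394 hypermethylated and 955 hypomethylated sites, which are the numbers of positive and negative values. The study's text departs from this for SHMT1, which it calls hypermethylated although it lists a negative difference for that gene. Every direction below rests on this reading. A gain is a site that was hypermethylated with the increased dose, and a loss is one that was hypomethylated. Values per animal were not used here, so no spread between animals stands beside any difference, the comparison across animals could not be tested again, and the read depth behind each difference is unknown. Every listed difference is at least 25 points because the authors kept only such sites.

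In mammals, methylation of cytosine occurs mainly where a cytosine is followed by a guanine (CpG). CpG islands at gene starts are mostly free of methylation, while gene bodies and repeats are mostly methylated, and methylation at a gene start usually goes with silence of the gene. Vitamin D acts through a nuclear receptor, and its active form is broken down by enzymes of the cytochrome P450 family. Lung tissue is a mixture of epithelial, endothelial, mesenchymal and immune cells. A difference at a site of whole tissue can therefore be a difference within cells or a difference in the mix of cells, and these cannot be told apart here.

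On chromosome 3 the increased dose went with hypermethylation at 119 sites (56.9%) and with hypomethylation at 90. Gains made up 59.3% of all 2349 listed sites and 59.9% of the sites on the other chromosomes. The median gain on chromosome 3 was 31.7 points and the median loss was -30.0 points, against 30.7 and -29.8 points on the other chromosomes. Differences of at least 40 points were found at 26 sites (12.4%), and such differences made up 13.7% of the whole list. They were 23 gains and 3 losses on chromosome 3, against 216 gains and 106 losses in the whole list, which includes chromosome 3. These sites do not all stand apart. Several of the 23 gains are close neighbours of each other, and 6 lie in the distal stretch given next. A stretch of 1.25 Mb near the distal end, around MYT1L, held 30 sites in succession and all 30 were gains. Without these 30 sites the chromosome had 89 gains and 90 losses (49.7% gains), a count made after the data were seen.

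The sequences that carry the results are printed first, from the plus strand of the RefSeq copy of Sscrofa11.1, 5′ to 3′, with each listed CpG in capitals. The first are the groups in which at least 3 listed sites followed each other with gaps of at most 100 bp. They lay in an intron of SDK1 (chr3:3198822-3198951, differences of -33.4, -37.5 and -31.0 points), in an intron of PLK1 (chr3:22540096-22540168, -33.5, -33.2 and 33.9 points) and in intergenic sequence whose nearest gene start is that of MBOAT2, 67481 bp away (chr3:127176296-127176362, 49.5, 43.0 and 50.8 points).
SDK1 group: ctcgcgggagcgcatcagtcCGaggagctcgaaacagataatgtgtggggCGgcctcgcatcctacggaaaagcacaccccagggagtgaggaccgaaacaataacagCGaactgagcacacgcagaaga
PLK1 group: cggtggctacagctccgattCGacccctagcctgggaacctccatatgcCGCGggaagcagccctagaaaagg
MBOAT2 group: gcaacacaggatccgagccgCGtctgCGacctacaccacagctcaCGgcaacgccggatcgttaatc
In the PLK1 group the loss and the gain of about equal size sit in directly adjoining CpGs, CGCG, and no tested position lies between the 3 sites by the row numbers of the table. The second kind are the sites of the largest gain (chr3:132206214-132206275, intron of MYT1L, 51.8 points) and of the largest loss (chr3:49023881-49023942, intergenic, -63.7 points) of the chromosome.
MYT1L largest gain: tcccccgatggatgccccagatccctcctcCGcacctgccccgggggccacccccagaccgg
Largest loss: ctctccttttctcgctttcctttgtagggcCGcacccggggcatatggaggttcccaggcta
The third kind were chosen after their values were seen. They are the other pair of close neighbours with opposite directions (chr3:20022320-20022396, -37.8 and 41.6 points) and 3 pairs in which both sites gained at least 40 points, in SNX29 (chr3:30876973-30877031, 41.2 and 42.4 points), in the intergenic sequence nearest to PKDCC (chr3:98232119-98232186, 41.9 and 43.8 points) and in that nearest to CAPN13 (chr3:108646037-108646120, 44.1 and 47.8 points).
Opposite pair: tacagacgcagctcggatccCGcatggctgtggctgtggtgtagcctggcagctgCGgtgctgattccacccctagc
SNX29 pair: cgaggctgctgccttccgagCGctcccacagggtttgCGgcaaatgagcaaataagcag
PKDCC pair: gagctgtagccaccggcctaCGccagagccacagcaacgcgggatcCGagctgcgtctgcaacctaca
CAPN13 pair: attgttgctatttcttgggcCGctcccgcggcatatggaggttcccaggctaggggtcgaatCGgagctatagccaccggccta
All listed positions of the chromosome are the cytosine of a CpG in this sequence, and each lies at most 141 bases from the CpG of an MspI site.

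Several of these stretches resemble each other. The word CCTCCATATG, read on both strands, stands in the PLK1 group, at the largest loss and in the CAPN13 pair. The word GGATCCGAGC, also read on both strands, stands in the MBOAT2 group, the opposite pair and the PKDCC pair. The letters of the words do not overlap, and both words were picked after the stretches had been read. Within 50 bases to either side of the CpG, the first word was present at 35 of the 209 sites (16.7%), against 13.6% of the listed sites on the other chromosomes and 2.47% of all CpGs of chromosome 3. The second was present at 24 sites (11.5%), against 12.9% and 3.19%. Among the chromosome 3 CpGs in MspI fragments of 40 to 220 bp, 1.25% had the first word and 6.09% the second. Sites with the first word were 16 gains and 19 losses, and sites with the second were 18 gains and 6 losses. On the other chromosomes gains made up 60.1% of sites with the first word and 55.5% of sites with the second. The sites with either word numbered 58, since 1 site held both, and all of them lie in sequence that the reference marks as repeat. Short interspersed elements descended from transfer RNA are very common in the pig genome. No family was assigned to these stretches here.

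Repeats were therefore described in more detail. Of the 209 sites, 112 (53.6%) lie in repeat-marked sequence, against 64.5% of listed sites elsewhere, 31.1% of all CpGs of chromosome 3 and 21.1% of its CpGs in MspI fragments of 40 to 220 bp. Only 70 of the 209 sites (33.5%) lie in fragments of that length in the reference, so those CpGs are not a matched background for most of the sites. For 39 sites (18.7%) the 62 bases centred on the CpG occur more than once in the chromosomes of the reference, counted on both strands without a mismatch, against 20.8% of listed sites elsewhere. These 39 sites were 27 gains and 12 losses, and elsewhere 255 of 425 such sites were gains. For 20 of them the 62 bases occur over 100 times and for 11 over 1000 times. One of the sites in RBFOX1, a regulator of neuronal splicing, gained 36.1 points in a window with 20665 copies, while the other site of the gene had -25.6 points. The site in SPTBN1, a spectrin of the membrane skeleton, gained 40.4 points in a window with 14722 copies. The PKDCC pair is printed above as a stretch with 336 exact copies, and the other 8 printed stretches occur once at their full length. The 62-base windows of single sites within them can still repeat. These windows occur 1109 and 67 times in the CAPN13 pair and 40, 31 and 16 times in the MBOAT2 group, and those of the PLK1 group are given below. A repeated window was found at 8 of the 26 sites of at least 40 points, and all 8 were gains. The windows are shorter than the reads, so a read can still be placed by what lies beyond them, and the part of read placement in these differences was not tested. Among the 170 sites whose window occurs once, 92 were gains (54.1%), against 59.9% elsewhere, a count added after the data were seen.

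**Figure D1:**
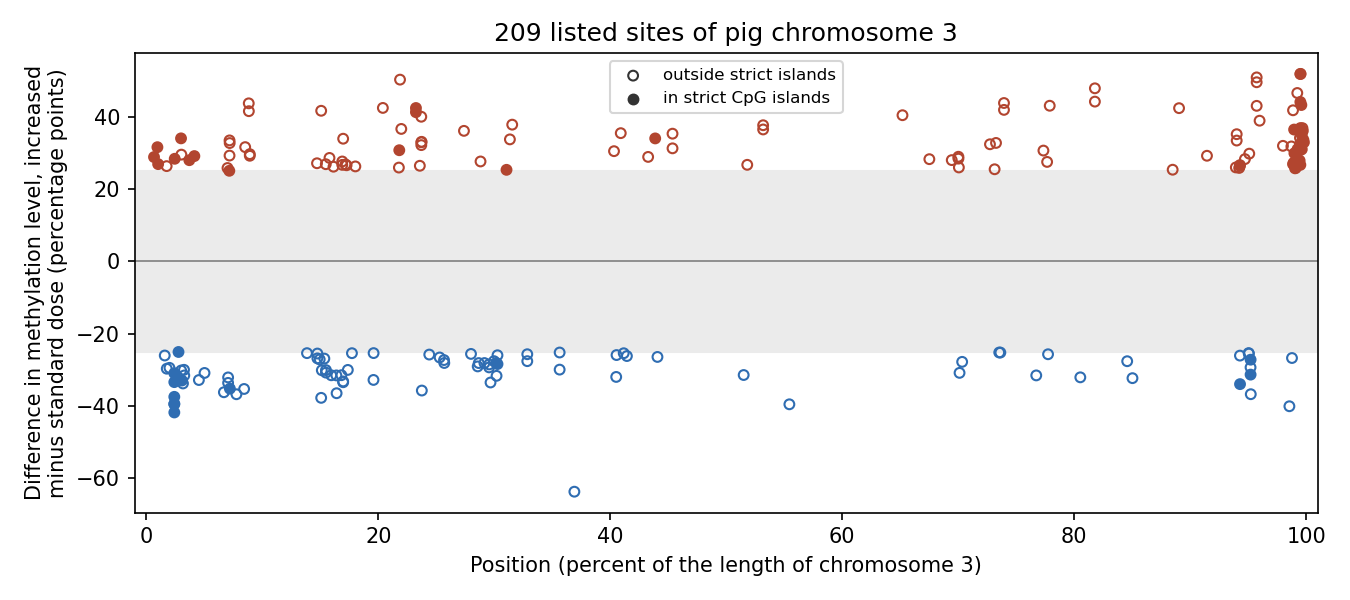
Difference in methylation level (increased minus standard dose, percentage points) of the 209 sites against position in percent of the length of chromosome 3. Red points are gains, blue points are losses, filled points lie in strict CpG islands, and the grey band from -25 to 25 points is empty because the authors listed no smaller difference. Gains and losses alternate along most of the chromosome, a single loss reaches -63.7 points, and filled red points stack up at the distal end.

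The sites were not spread evenly, and neither were the rows of the authors' table, as given below. In the first 10 Mb there were 35 sites, 14 gains and 21 losses. Between 40 and 50 Mb there were 12 sites, of which 3 were gains. Only 9 sites in all lay between 60 and 90 Mb, and the longest gap without a site ran over 12955299 bp from ARHGAP25 to SPTBN1. That gap spans 2008 rows of the authors' table, so it was not without tested positions. From 130 Mb to the end there were 34 sites, of which 32 were gains. The row numbers in the table rise along the genome, and in 0 of 208 steps between neighbouring sites did they rise by more than the number of reference CpGs passed. They were therefore taken as row numbers in a larger table that held every tested position. On this reading 48949 rows lie from the first to the last site of chromosome 3, of which 0.427% were listed, against 0.352% of all 667810 rows. The first share is an upper bound, because it is cut at listed sites. At most 54104 rows can belong to the chromosome, which gives a lower bound of 0.386%. On 9 other chromosomes the share from the first to the last site was larger than 0.427%, and among autosomes it reached 0.527% on chromosome 15. Chromosome 6, which alone had more listed sites (248), had 0.363%. The windows were compared by the rows from their first to their last site. In the first 10 Mb 0.388% of 9031 rows were listed, and between 40 and 50 Mb 0.266% of 4512. The share was 0.474% of 843 rows from 60 to 70 Mb and 0.293% of 1024 from 70 to 80 Mb. It was 0.930% of 215 rows from 80 to 90 Mb and 1.31% of 2589 from 130 Mb on. These shares are bounded by listed sites.

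**Figure D2:**
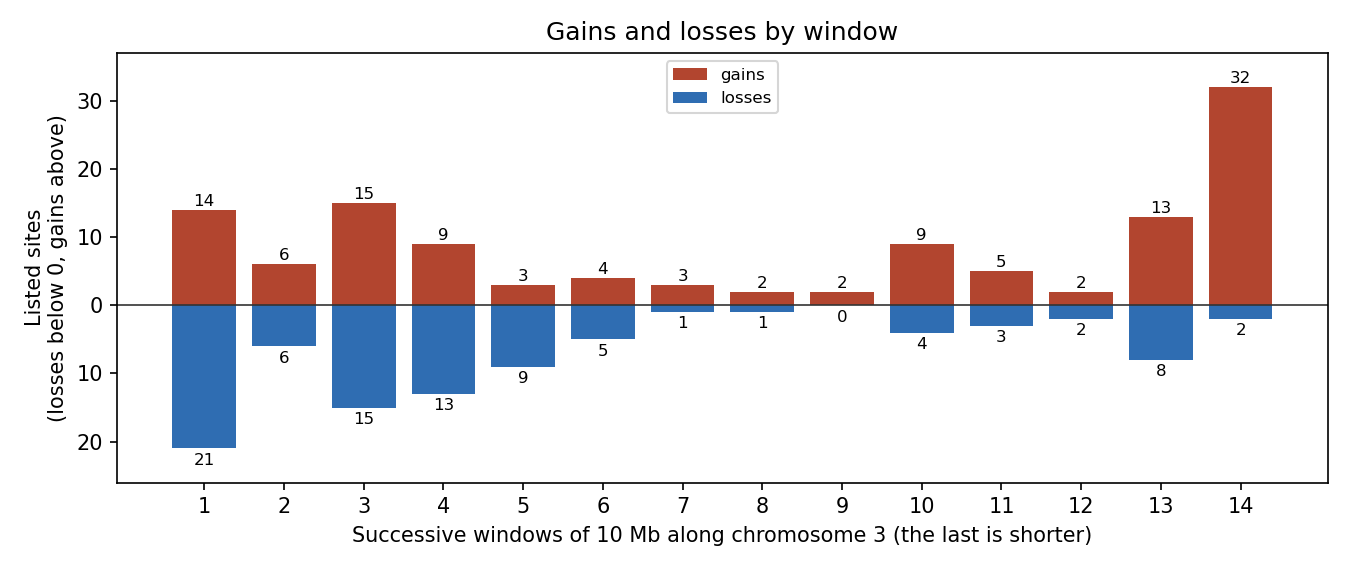
Number of gains (red, upward) and losses (blue, downward) in successive windows of 10 Mb along chromosome 3, of which the last is shorter. The last window has 32 gains and 2 losses, and the first has 14 gains and 21 losses.

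The distal stretch began in TRAPPC12 at position 131339791 and ended at 132587731. It took up 1985 rows of the table, of which 1.51% were listed. Its gains ran from 25.7 to 51.8 points with a median of 32.6 points, and 6 of the 30 were of at least 40 points. Of the 30 sites, 17 lie in introns, 12 in intergenic sequence and 1 in a promoter. Only 5 of them lie in repeat-marked sequence and 28 have a window that occurs once. Strict CpG islands (at least 500 bp, GC share over 0.55, observed over expected CpG over 0.65) held 22 of the 30. The stretch overlaps 6 RefSeq protein-coding genes, and 4 of them have a site in the gene body. On chromosome 6 the longest run of sites with the same direction was also 30, and on the remaining chromosomes the longest ran from 7 to 20 sites. The run that includes the last listed site of a chromosome held 1 to 8 sites elsewhere, apart from Y, whose 12 sites were all gains. Immediately proximal to the stretch, the site assigned to COLEC11, a collectin of innate immunity, had -26.8 points.

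MYT1L, a zinc finger transcription factor of neurons, had 13 of the 30 sites. In order along the plus strand its sites gained 27.8, 34.1, 32.2, 30.7, 32.0, 51.8, 26.6, 44.0, 36.8, 32.1, 32.3, 51.8 and 43.2 points. The first of these 13 sites carries no symbol in the table but lies in the RefSeq body of the gene, and the last carries the symbol but lies 394 bp beyond the end of that body. All 13 were gains and 11 lie in strict islands. Among the 353 rows between the first and the last site with the symbol, 3.40% were listed. This share is bounded by listed sites. For the other symbols with at least 3 sites it was 100% in PLK1, 19.0% in E2F6, 9.30% in GRHL1, 6.42% in SDK1, 2.22% in CUX1 and 1.15% in HS3ST4. Sites 41 bp apart differed by 19.5 points in size, 32.3 against 51.8 points, while sites 66 bp apart had 30.7 and 32.0 points. No spread between animals is at hand to set against these differences in size.

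The neighbours of MYT1L followed the same direction. In PXDN, a peroxidase that crosslinks collagen IV of basement membranes, the 2 sites gained 34.97 and 30.94 points. The first of them has a window that occurs 2 times in the genome. In TRAPPC12, a subunit of a complex that tethers transport vesicles, the 2 sites gained 26.9 and 41.7 points. The site in EIPR1, which takes part in sorting at endosomes, gained 27.3 points in a window with 9526 copies. The last site of the stretch gained 32.9 points and lies 25 bp upstream of the start of the uncharacterised gene LOC110260065.

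**Figure D3:**
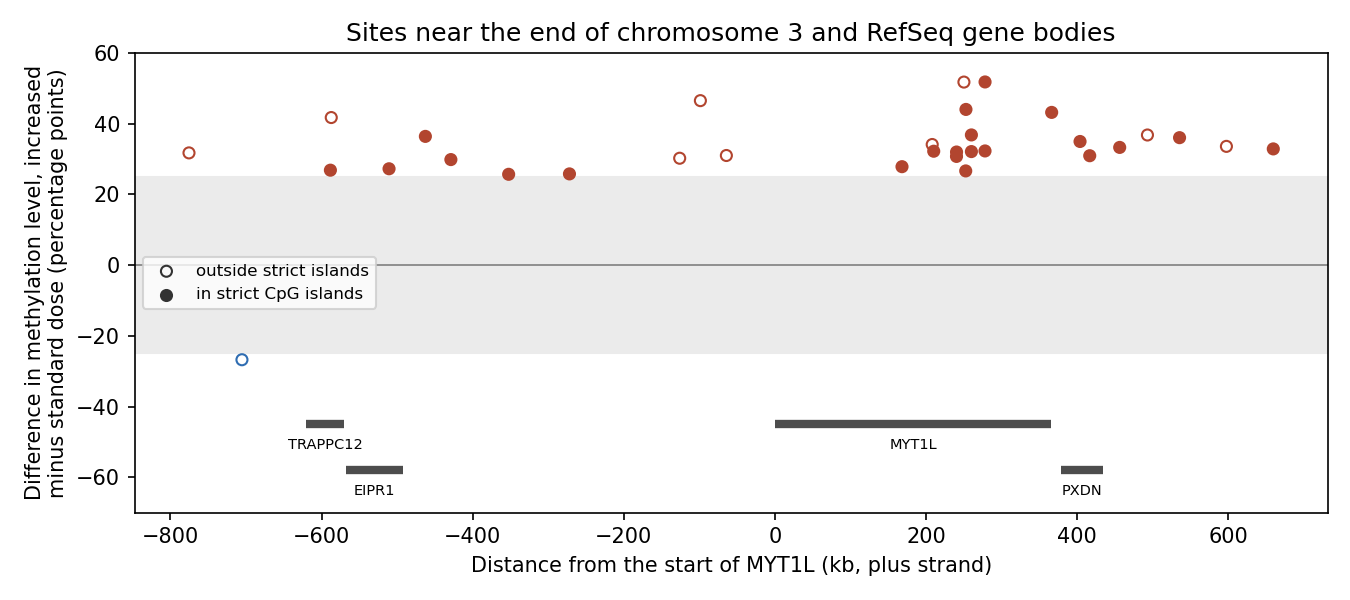
Difference in methylation level (percentage points) against the distance in kb from the start of MYT1L for the sites near the end of chromosome 3, with grey bars for the bodies of the RefSeq protein-coding genes that hold a site. Filled points lie in strict CpG islands. From TRAPPC12 onward all 30 points are gains, and the 13 sites of MYT1L have 26.6 to 51.8 points. All but the last of these 13 lie 168 to 278 kb from the start of the gene, whose body ends at 366 kb. The last lies just beyond that end.

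Of the 113 sites with a gene symbol, which name 66 genes, 46 genes had 1 site, 13 had 2 and 7 had at least 3. Sites without a symbol that lie in a RefSeq gene body brought 2 more genes to at least 3 sites, LITAF and MRTFB, which makes 9 genes. Both were added after their values were seen. Among the 20 symbols with several sites, 12 had sites of a single direction and 8 had both. Averaged per symbol, 33 genes had a gain and 33 a loss. The 8 genes with both directions enter this count by the sign of their mean. That mean was small in some, with 2.76 points in CUX1, 1.88 in TNRC18, -1.79 in E2F6 and -1.38 in HS3ST4. The even count thus rests in part on small means, and no such count for the whole list is given here.

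SDK1, an adhesion molecule of the immunoglobulin superfamily best known from synapses, had the most losses of any gene on the chromosome. Its first 6 sites, between positions 3198350 and 3200907, had -39.5, -33.4, -37.5, -31.0, -41.8 and -39.4 points, all of them in introns and in strict islands. The seventh, at position 3247066, gained 28.3 points. With the intergenic losses of -29.7 and -29.5 points before them, the SDK1 losses formed a run of 8. GRHL1, an epithelial transcription factor of the grainyhead family, had 4 sites and all were losses, of -29.4, -31.4, -27.2 and -36.8 points over 25450 bp. In both genes the sites within 100 bp of each other differed by less than 7 points.

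CUX1, a homeodomain transcription factor, changed direction along its length. Its sites had -32.1 and -33.6 points, then 25.01, 29.2, 33.4 and 32.7 points, and finally -35.2 points in a non-coding exon of LOC110259890, which overlaps CUX1. The 4 gains thus lay together, with losses on both sides. E2F6, a repressive member of the E2F family, had 26.4 and 26.6 points and then -26.1 and -34.0 points over 14656 bp, the last of them in its 3′ UTR. HS3ST4, a sulfotransferase of heparan sulfate, had 26.8, -30.8, -30.1 and 28.6 points, the third in a window with 190 copies. LITAF, a membrane protein of late endosomes induced by lipopolysaccharide, had 39.96, 32.9, 32.1 and 33.0 points and then -35.8 points at a site 405 bp upstream of one of its transcript starts. The windows of the first 3 LITAF sites occur 2 times each. PLK1, a kinase of mitosis, had the 3 sites of the printed group, all of them in windows that occur 2 to 11 times.

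**Figure D4:**
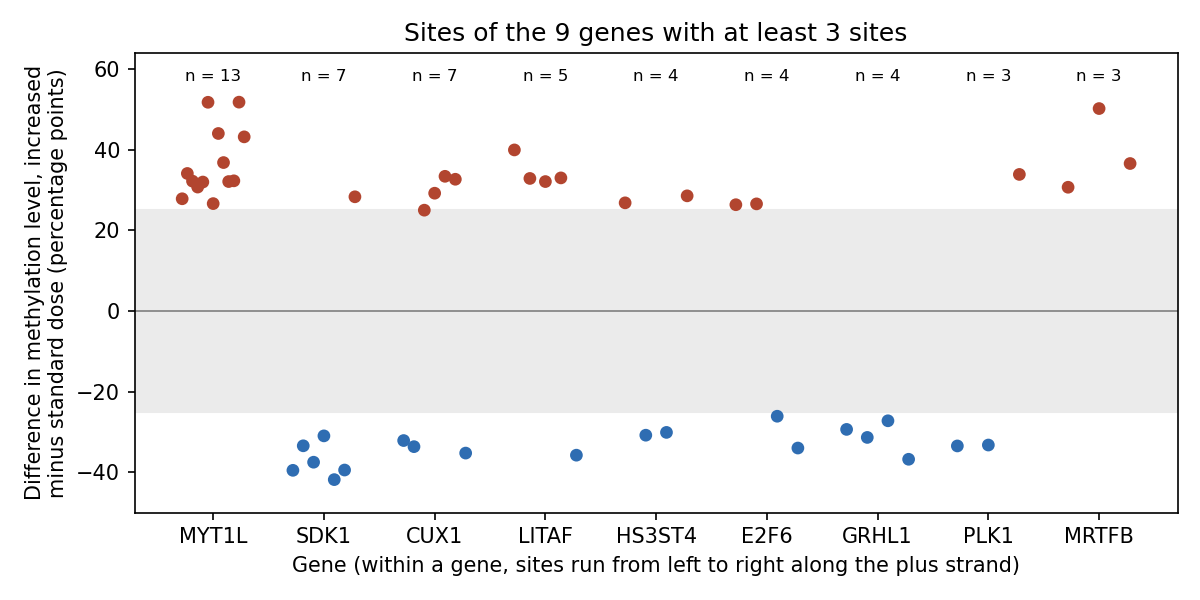
Difference in methylation level (percentage points) of each site in the 9 genes with at least 3 sites by symbol or RefSeq body, in order along the plus strand within each gene. MYT1L has 13 gains, MRTFB has 3 gains and GRHL1 has 4 losses, while the other 6 genes have both directions, with the gains of CUX1, E2F6 and LITAF each lying together.

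Neighbouring sites mostly moved together. Of 26 pairs of neighbours up to 100 bp apart, 24 had the same direction, 14 as gains and 10 as losses. The median difference in size within the 24 pairs was 1.83 points, and in 20 of them it was at most 5 points. Listed sites of the same direction are close in size by selection, because only differences of at least 25 points were listed. On chromosome 3 the quartiles were 27.7 and 36.5 points for gains and -33.0 and -26.8 points for losses. Whether neighbours are closer in size than distant sites was not tested. Such neighbours can be read from the same molecules, and 25 of the 26 pairs lie within the same MspI fragment, so a pair is not 2 independent measurements. On the other chromosomes 209 of 245 such pairs (85.3%) had the same direction. The 2 pairs with opposite directions are printed above. In the PLK1 pair, the sites 2 bp apart had -33.2 and 33.9 points, and in the other pair the sites 35 bp apart had -37.8 and 41.6 points. All 4 lie in repeat-marked sequence. Altogether 49 sites stood in 23 groups of close sites, and 12 of these groups had no unlisted row between the first and the last site.

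**Figure D5:**
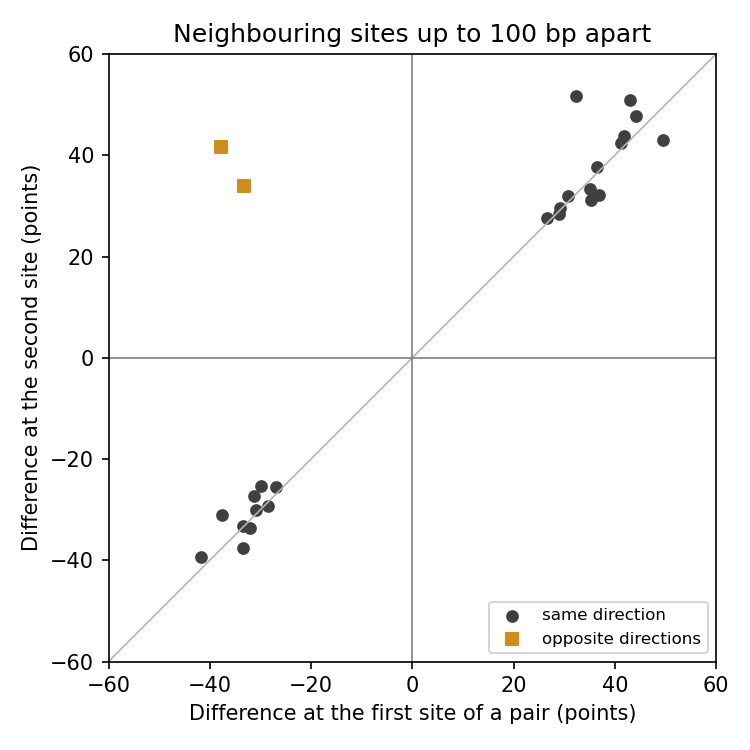
Difference at the second site of a pair against the difference at the first (percentage points) for the 26 pairs of neighbouring sites up to 100 bp apart, with the line of equal values. The 24 pairs with the same direction lie near the line, apart from 1 pair of MYT1L that is 19.5 points off, and the 2 opposite pairs lie far from it.

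The 10 largest gains at a symbol, with 1 site per gene, were in MYT1L, TRAPPC12, RBFOX1 and SPTBN1, which are given above, and in 6 further genes. MRTFB, an actin-responsive partner of serum response factor that RefSeq names MKL2, gained 50.2 points in an intron at position 29054299 (q = 3.17e-18) and 30.7 points in its 3′ UTR, and another site in the gene body, without a symbol, gained 36.6 points. GTF2I, a general transcription factor that binds initiator elements, gained 43.7 and 41.5 points at sites 11790 bp apart. VIT, the matrix protein vitrin, gained 43.0 points. SNX29, a sorting nexin, gained 41.2 and 42.4 points at the printed pair. ZNF484, a zinc finger protein, gained 37.8 points in a window with 1085 copies, and AFF3, a nuclear protein related to transcription elongation factors, had 35.4 and -25.4 points. MRTFB, SNX29 and 4 of the LITAF sites belong to a run of 12 gains over 4438490 bp.

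Of the 10 largest losses at a symbol, those of SDK1, GRHL1, CUX1 and E2F6 are given above. The loss beside ARHGAP25, a GTPase activator of Rac in blood cells, was -39.6 points at a site 1466 bp upstream of its start. The loss beside AP1S1, a subunit of the clathrin adaptor of the trans-Golgi network, was -36.2 points at a site 1723 bp upstream of its start, in an intron of LOC110259888. RNF216, a ubiquitin ligase, had -33.8 and -30.0 points, the first in a window with 1642 copies. KCTD5, an adaptor of cullin ubiquitin ligases, had -33.5 points and FBXL18, an F-box protein, had -33.0 points. TRRAP, a scaffold of histone acetyltransferase complexes, had -32.9 points. KCTD5 lies in a run of 9 losses over 1497482 bp with CLUAP1, TRAF7 and MAPK8IP3. The largest loss of all, -63.7 points (q = 1.76e-94), lies in a repeat 52033 bp from the nearest gene start, that of C3H2orf40, and was also the largest loss in the whole list of 2349 sites. The next largest loss on the chromosome was -41.8 points.

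Few sites lay in exons or promoters, as on the other chromosomes. Introns held 122 sites (58.4%) and intergenic sequence 78 (37.3%), against 57.8% and 37.2% on the other chromosomes. Coding exons held 1.44% of the sites, against 1.13% elsewhere, and promoters 0.957%, against 1.13%. For 5′ UTRs the share was 0.478% against 0.734%, for 3′ UTRs 0.957% against 1.22%, and for non-coding exons 0.478% against 0.881%. Gains made up 66 of the 122 sites in introns (54.1%) and 48 of the 78 intergenic sites (61.5%), and elsewhere 59.8% and 59.7%. In coding exons TNRC18, a large chromatin-associated protein, gained 34.0 points, EIF2AK3, the kinase PERK of the unfolded protein response, gained 28.8 points, and KNOP1, a nucleolar protein, had -25.4 points. The site in the 5′ UTR of LOC106509613, inside MAD1L1 of the spindle checkpoint, gained 26.9 points. Promoters, taken as the 1000 bp upstream of a RefSeq gene, held 2 sites. One is the last site of the distal stretch, and the other, with the symbol IQCK, had -32.8 points upstream of LOC110259914. Sites upstream of a transcript start inside a gene body are counted as intron here. The LITAF loss given above is such a site. In FLYWCH2 the sites had -28.5 and -29.4 points, 356 and 368 bp upstream of a transcript start.

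By the lenient definition (at least 200 bp, GC share over 0.5, observed over expected CpG over 0.6) CpG islands held 150 sites (71.8%), against 70.5% elsewhere. By the strict definition they held 49 (23.4%), against 16.7% elsewhere, 17.4% of all CpGs of the chromosome and 49.4% of its CpGs in MspI fragments of 40 to 220 bp. Of the 49 strict island sites, 36 were gains (73.5%), against 60.7% elsewhere. The distal stretch supplied 22 of them, and without it 27 of 179 sites (15.1%) lay in strict islands. The 2 parts also differ in their fragments. In the stretch 66.7% of the sites lie in MspI fragments of 40 to 220 bp, against 27.9% of the 179 other sites. The part of this in the island shares was not tested. Only 2 strict island sites have a window that occurs more than once.

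The genes of 10 lists were looked up on chromosome 3. They were drawn up with earlier results of these data known, so their counts are descriptions. They are not complete. Among the genes that their counts leave out are GRHL1, VIT and CLUAP1, a protein of cilia whose site had -28.2 points. EEF2K, a kinase of translation elongation whose site gained 26.2 points, is left out too. So is KCNK12, a relative of the potassium channel KCNK3. Its 2 sites gained 28.9 and 28.4 points, the first in a window with 138 copies. Of the 217 listed genes on the chromosome, 25 had a site in the gene body or by symbol, and of all 1310 RefSeq protein-coding genes there, 77 (5.88%) had a site in the body. Genes with a site were long, with a median of 82699 bp against 18778.5 bp for all protein-coding genes, and long genes offer more positions. Of the 31 transcription factors in the list 4 had a site, namely MYT1L and GTF2I with gains alone and CUX1 and E2F6 with both directions. Of 19 genes of chromatin and DNA methylation 3 had a site, TRRAP, TNRC18 with 34.0 and -30.2 points, and MTA3, a subunit of the nucleosome remodelling complex NuRD, with -25.2 points. Of 20 small GTPases and regulators 3 had a site. CYTH3, an exchange factor of ARF GTPases, gained 27.9 points, GNA12, a G protein alpha subunit, had -26.1 points, and ARHGAP25 is given above.

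Among 23 kinases, phosphatases and their scaffolds 4 had a site, PLK1, EIF2AK3, PRKCB and MAPK8IP3. PRKCB, protein kinase C beta, had -31.5 points and MAPK8IP3, a scaffold of JNK signalling, had -26.004 and -28.434 points. Of 23 genes of cytoskeleton and motors 4 had a site. MAD1L1 gained 31.5 and 26.9 points, SPTBN1 is given above, and BAIAP2L1, which links membranes to actin, gained 29.1 points. STRN, the scaffold striatin, had -25.7 points in a window with 131 copies. Of 27 immune and inflammatory genes LITAF and IL4R had a site, and IL4R, a receptor chain for interleukin-4, gained 27.1 points in an intron. Of 24 adhesion and matrix genes SDK1 and PXDN had one. Of 33 ion channels and transporters ABCG5, a sterol transporter, gained 32.3 points and KCNK3, a potassium channel of the lung circulation, had -27.7 points. In the list of vitamin D, vitamin K, calcium and cytochrome P450 genes 1 of 10 had a site, CYP3A22, an enzyme of the 3A family, with -30.9 points in an intron. Of the 13 genes in the list of lung epithelium and cilia, which leaves out CLUAP1 and GRHL1, 0 had one.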

How the data were processed

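RRBS was run on lung DNA of 16 pigs, grouped by the treatment in the labels. Per the study's methods, reads were trimmed with FlexBar and mapped to Sscrofa11.1 with BSMAP. CpGs covered by more than 5 reads were kept, and methylKit 1.26.0 listed sites past 25 points with q below 0.05. The submitters' processing notes also name FastQC, methylKit 1.26.0 and this build. The deposited table holds, per site, a p-value and q-value that the authors computed. The authors' methylation difference was used as a signed score in percentage points, read as increased minus standard dose. No source used here says whether the test took spread between animals into account, and with reads as its unit the q-values would be too small.

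Rows with chromosome 3 were selected and placed on the RefSeq genome and annotation of Sscrofa11.1 with Python 3.11.15, pandas 2.3.3 and numpy 2.4.6. Of the 209 sites, 100 carried the symbol of the RefSeq gene they lie in, 13 a symbol that RefSeq gives another name or extent, and 96 none. Exact copies of windows and words were counted on both strands of the chromosomes, without scaffolds. Members and gene lists were chosen with earlier results of these data known. Named genes were the 10 largest gains and 10 largest losses by symbol, symbols with at least 3 sites, sites in exons or promoters, and listed genes. An item of the distal stretch is not reported here. Because the table has 1 value per site and sites are not replicates, no test was made. Scripts were tested on simulated data, where groups and runs were recovered in 200 of 200 sets.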

Additional observations from a re-analysis of the deposited data

How the results depend on the processing

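The share of gains was 71.2% among sites of at least 35 points, and 49.7% without the distal run of gains, the latter chosen after seeing the data. It moved less than its counting interval, between 53.1% and 60.3%, with at least 30 points, q under 1e-10, close sites counted as 1, symbols only, or (added after seeing the data) windows that occur once. Limits on size move medians by construction. The median gain was 35.3 points with at least 30 points and 41.7 with at least 35, and the median loss was -32.9 and -37.5. Strict islands held 23.4% of sites instead of 71.8%. Promoters held 4 sites at 2000 bp and 1 with q under 1e-10. The 209 sites come to 0.0655% of the number of CpGs in MspI fragments of 40 to 220 bp, in which only 70 of the sites lie, and to 0.0102% of all CpGs. All other alternatives moved their value by no more than its counting interval or, for counts, 1.5 times. A counting interval is taken over sites and not over animals. Sites are not replicates and close sites can share molecules. A value that stayed within its interval is therefore not shown to hold across animals. Neither a minimum coverage nor the omission of 1 animal at a time was run, because the table has no read numbers and no values per animal. No paired analysis was possible because the result comes from no test and the labels give no shared replicate numbers.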
